A study of Mus musculus with 5 samples.

Results

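The genes described here encode the 5 connexins Gja1, Gja3, Gja4, Gja5 and Gjc1 and the 5 junction partners Tjp1, Cdh2, Dsp, Pkp2 and Jup. They were chosen by symbol, and each is represented by the single-symbol probe set with the highest mean over the 5 arrays. All 10 were found among 22180 named genes, and all 10 passed the level filter that left 15294 genes for testing. The antagonist group (n = 3 hearts) came from wildtype C57Bl6J mice that received a REV-ERB alpha antagonist into the peritoneum at 10 µM, as the labels state it, 4 h and 1 h before the perfusion. The sham group (n = 2 hearts) came from mice of the same strain and genotype without the antagonist. The labels give no age or sex, name no compound and do not say whether sham mice received vehicle. Hearts of both groups were taken at zeitgeber time 12, isolated on a Langendorff apparatus, and given 20 min of stabilisation, 20 min without flow and 20 min of reperfusion before freezing. Every value therefore describes reperfused tissue, and hearts without ischemia were not analysed here.

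Connexins assemble into ring-shaped hemichannels that dock with those of a neighbouring cell to form gap junctions, through which ions and small molecules pass. In heart muscle most gap junctions lie in the intercalated disc, beside adherens junctions and desmosomes that hold the cells together mechanically. Cx43, the connexin encoded by Gja1, is the main connexin of working ventricular muscle and is known to be dephosphorylated and redistributed in ischemic myocardium. The arrays measured RNA, so the place and phosphorylation of the proteins are outside these data.

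Gja1 was lower in every antagonist heart than in either sham heart, with a mean difference of -0.42 on the log2 scale. Gja4, an endothelial connexin gene, had a mean difference of the same size with overlapping groups, and which of the 2 was larger changed with array weights, with the replicate block and with the array left out. Dsp, which encodes the desmosomal linker desmoplakin, was the other gene whose groups did not overlap, by a narrow margin. In all, 9 of the 10 genes had a lower mean with the antagonist and 1, Gja5, had a higher one, while among all tested genes 46.3% were lower and 47.7% higher. Of the 10 genes, 0 passed an adjusted p under 0.05 with limma, as did 0 of the 15294 genes tested (0%). At an unadjusted p under 0.05 there was 1 of the 10, Gja1, beside 704 of all tested genes (4.6%; 2.37% with the antagonist lower). The groups did not overlap for 2 of the 10 genes, both lower, beside 12.5% of all tested genes in either direction 6.33% with the antagonist lower and 6.19% with it higher. The median difference of the 10 genes was -0.12 on the log2 scale, against 0 for all tested genes.

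**Figure D1:**
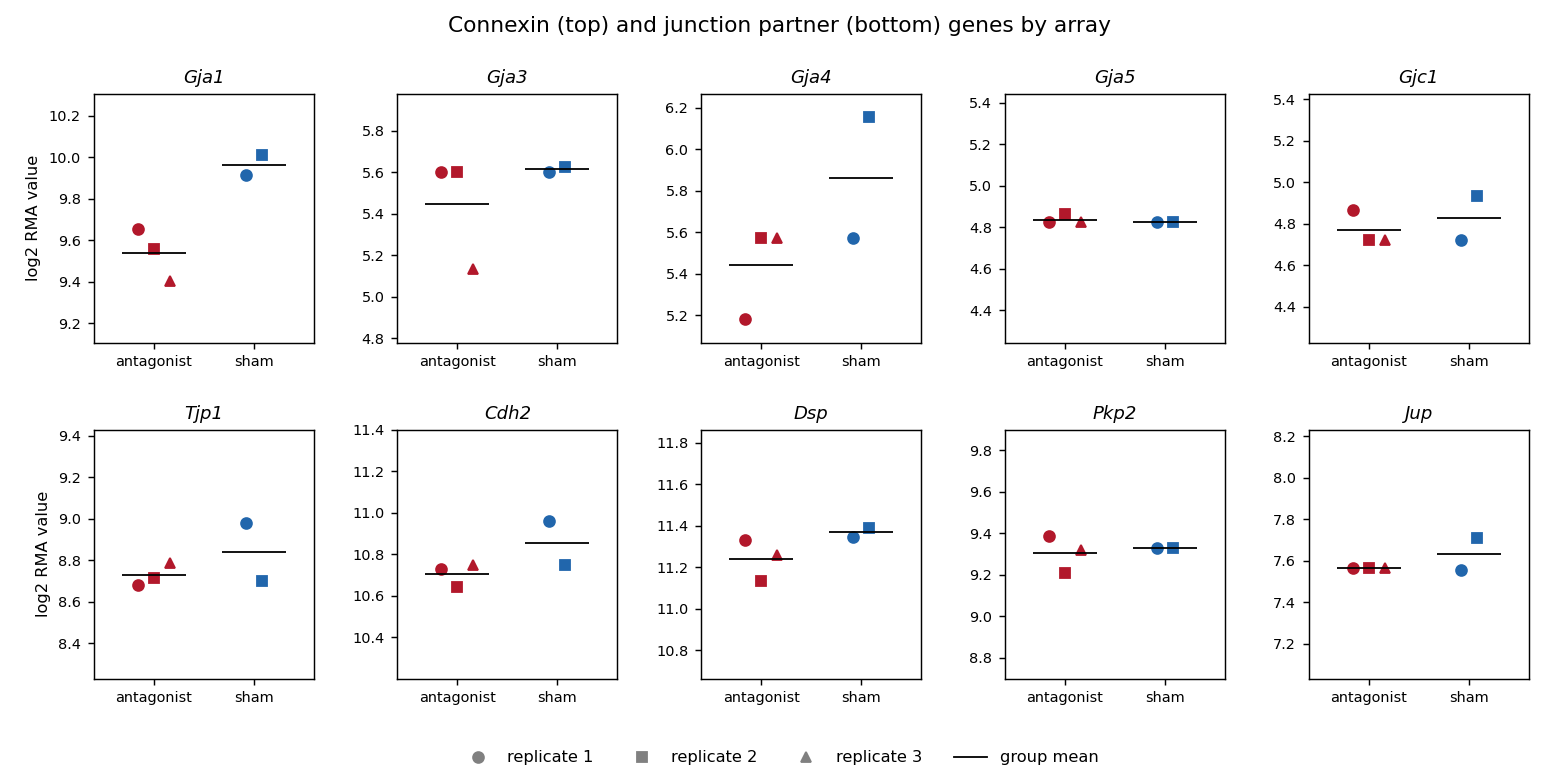
The log2 expression value of each gene (vertical axis, every panel spanning the same height) is plotted for the 3 antagonist hearts and the 2 sham hearts, with 1 point per array and a line at the group mean. Gja1 shows a gap of 0.26 between the groups, Dsp one of 0.014, and several panels hold points at exactly the same height.

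Array medians lay between 3.92 and 3.95 on the log2 scale, and Pearson correlations between arrays, across probes, ranged from 0.986 to 0.990. Heart muscle markers were present on every array: 10 of 10 cardiomyocyte markers passed the level filter, and their mean log2 value was 11.44 to 11.49 in antagonist hearts and 11.40 to 11.49 in sham hearts. Antagonist replicate 2 stood apart in markers of the atrium and of fat. Its 7 tested atrial markers had a summed linear signal of 12105, against 3787 and 3906 in the other antagonist hearts and 3487 and 4451 in the sham hearts. Its 5 tested adipocyte markers had a summed signal of 478, against 81.4 and 103 in the other antagonist hearts and 80.9 and 85.4 in the sham hearts. Many genes had exactly equal values on several arrays, and for 73.9% of those tested at least 1 value was shared between arrays. In bulk tissue, fewer cells of a type and less RNA per cell cannot be told apart.

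**Figure D2:**
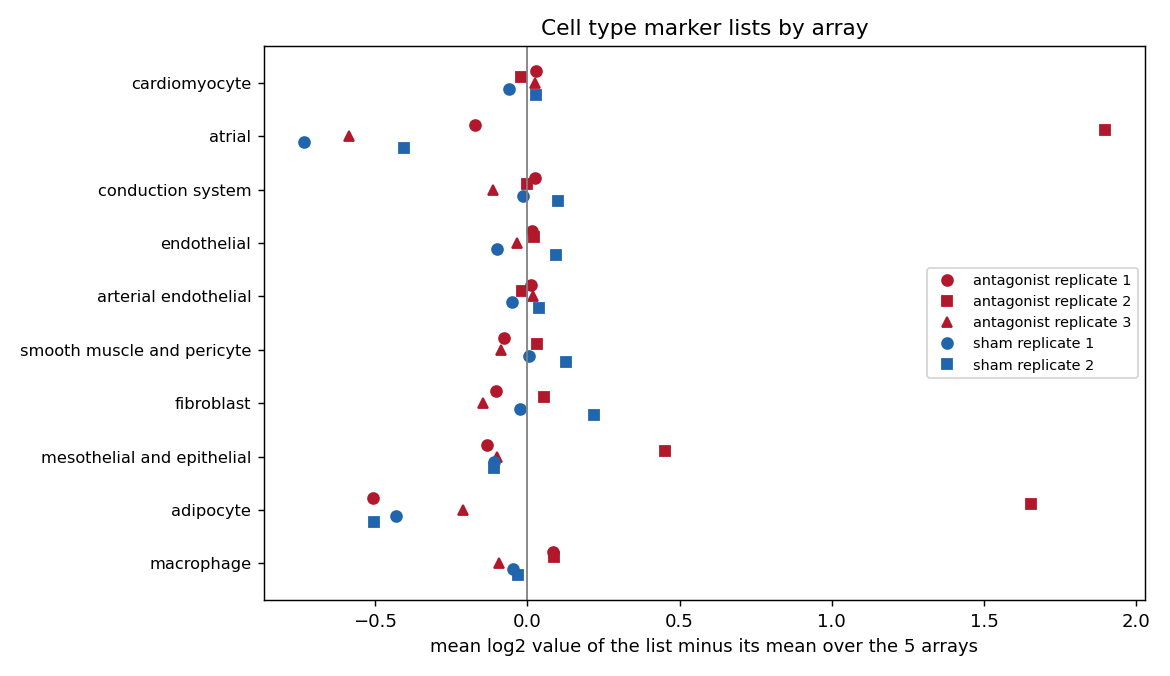
For each cell type marker list, the mean log2 value on every array is shown relative to the list's mean over the 5 arrays (horizontal axis), with antagonist hearts in red and sham hearts in blue. Antagonist replicate 2 lies far to the right for the atrial, adipocyte and mesothelial lists, while the cardiomyocyte and endothelial lists spread little.

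Gja1 (Entrez Gene 14609) encodes Cx43. Its log2 value was 9.66, 9.56 and 9.40 in antagonist hearts and 9.91 and 10.01 in sham hearts. The highest antagonist heart lay 0.26 below the lowest sham heart, and the 5 arrays all had different values. Antagonist hearts averaged 9.54 ± 0.13 (SD, n = 3) and sham hearts 9.96 ± 0.068 (SD, n = 2). The difference was -0.42 ± 0.092 (SE) on the log2 scale, a 0.745-fold level, with an unadjusted 95% interval of -0.69 to -0.16. With limma the unadjusted p was 0.012 and the adjusted p 0.64, and Gja1 ranked at 239 among all tested genes by unadjusted p. An exact permutation test (two-sided, all 10 ways to divide the arrays) gave p = 0.10, below which 3 hearts against 2 cannot go. A difference this far below 0 or farther was found for 124 tested genes (0.811%). The Gja1 difference was -0.43 without antagonist replicate 2 and lay between -0.48 and -0.36 whichever array was left out.

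The stretches of promoter next to the transcription start of Gja1 and Dsp are shown because these were the genes whose groups did not overlap. Each holds the 250 bases before the annotated start, 5′ to 3′ on the gene's strand, from RefSeq on GRCm38.p6. Gja1 lies on the plus strand at chr10:56377050-56377299 and Dsp on the plus strand at chr13:38151044-38151293. Capitals mark the matches found among 5 motifs searched on both strands.
Gja1: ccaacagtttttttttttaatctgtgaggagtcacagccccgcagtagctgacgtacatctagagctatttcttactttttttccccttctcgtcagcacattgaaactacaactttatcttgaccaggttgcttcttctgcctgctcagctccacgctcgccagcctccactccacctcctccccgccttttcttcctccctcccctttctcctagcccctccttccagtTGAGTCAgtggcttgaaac
Dsp: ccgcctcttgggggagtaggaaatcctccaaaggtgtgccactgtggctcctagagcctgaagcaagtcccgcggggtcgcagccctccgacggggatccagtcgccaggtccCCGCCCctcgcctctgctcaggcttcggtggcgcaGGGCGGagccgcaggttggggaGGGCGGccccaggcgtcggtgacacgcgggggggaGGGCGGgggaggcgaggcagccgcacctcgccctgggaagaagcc
The capitals in Gja1 are a match to the AP-1 element TGANTCA, 19 to 13 bases before the start, a motif present in 6.75% of 32851 promoter windows of this length. The capitals in Dsp are 4 matches to GGGCGG, the GC box bound by Sp1, which 32.7% of all windows hold. Promoters of 7 of the 10 genes, in 8 windows, were matched by symbol. The core of the REV-ERB and ROR element, AGGTCA, was found in 0 of these 8 windows and in 14.0% of all windows. The clock E-box CACGTG (6.02% of all windows) and the T-box element TCACACCT (1.12%) were likewise found in 0 of the 8. GGGCGG was present for Dsp, Gja4, Gja5, Jup and Tjp1. The 5 motifs do not contain one another, and such matches describe letters and not bound sites.

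The groups overlapped for the other connexins. Gja4 encodes Cx37, a connexin of arterial endothelium, and had values of 5.18, 5.57 and 5.57 in antagonist hearts against 5.57 and 6.15 in sham hearts. The same value, 5.57, occurred on 3 arrays, so the groups touched, and the mean difference came from a low antagonist replicate 1 and a high sham replicate 2. It was -0.42 ± 0.25 (SE; limma adjusted p = 0.64; exact permutation p = 0.30), and -0.13 without sham replicate 2. Without antagonist replicate 1 the Gja4 difference was -0.29, and without sham replicate 1 it was -0.71. Gja4 had the greatest spread of the 10 genes (SD 0.35 over the 5 arrays). The tested genes nearest to it in pattern were Chaf1b, Smim17 and Olfr452, with root mean square distances of 0.105, 0.108 and 0.121 between values centred on each gene's own mean over the 5 arrays.

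Gja5 encodes Cx40, the connexin of atrial muscle, the His-Purkinje system and arterial endothelium. Its values were 4.82, 4.87 and 4.82 in antagonist hearts and 4.82 and 4.82 in sham hearts, so 4 of 5 arrays shared a value. The slightly higher array was antagonist replicate 2. There Nppa, the atrial natriuretic peptide gene, measured 12.86, against 11.63 and 11.67 in the other antagonist hearts and 11.93 and 11.47 in the sham hearts. A link between the values of Gja5 and Nppa was not tested. The Gja5 range over the arrays was 0.042 on the log2 scale. Its difference was 0.014 ± 0.019 (SE; limma adjusted p = 0.76), and 0 without antagonist replicate 2. A further probe set, listed for Gja5 together with Gpr89, was not used for testing. It measured 6.39, 6.39 and 6.41 in antagonist hearts and 6.39 and 6.30 in sham hearts, so antagonist replicate 2 was not its highest array.

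Gja3 encodes Cx46, best known from the eye lens, and Gjc1 encodes Cx45, the connexin of the early heart and of nodal tissue. Gja3 measured 5.60, 5.60 and 5.13 in antagonist hearts and 5.60 and 5.62 in sham hearts. Antagonist replicate 3 was the low array, and the difference of -0.17 ± 0.18 (SE; limma adjusted p = 0.74) became -0.011 without it and -0.25 without antagonist replicate 1 or 2. Gjc1 measured 4.87, 4.72 and 4.72 in antagonist hearts and 4.72 and 4.93 in sham hearts, with 1 array raised in each group. Its difference was -0.056 ± 0.090 (SE; limma adjusted p = 0.80), which became 0.048 without sham replicate 2, -0.16 without sham replicate 1 and -0.10 without antagonist replicate 1.

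**Figure D3:**
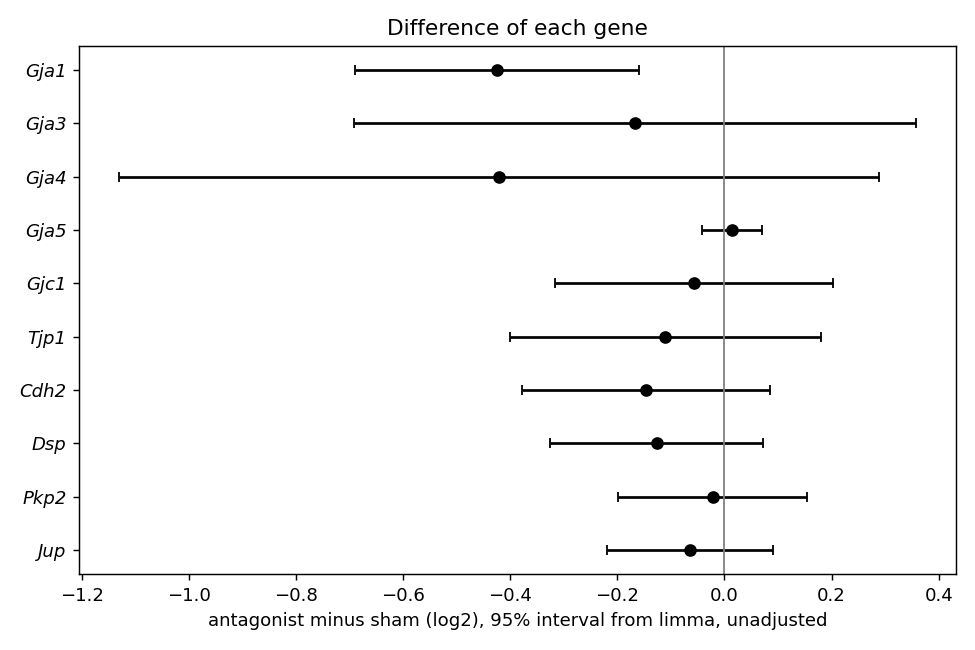
The difference of each gene, antagonist minus sham on the log2 scale, is plotted with limma's unadjusted 95% interval. The interval of Gja1 lies below 0, from -0.69 to -0.16, and those of the other 9 genes include 0.

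Among the mechanical junction genes all 5 had a lower mean with the antagonist, by 0.022 to 0.15 on the log2 scale. Dsp (Entrez Gene 109620) encodes desmoplakin, which ties desmosomes to desmin filaments. It measured 11.33, 11.14 and 11.26 in antagonist hearts against 11.35 and 11.39 in sham hearts. The gap between the nearest hearts was 0.014, small beside the spread among the antagonist hearts (SD 0.099). The Dsp difference was -0.13 ± 0.069 (SE; limma adjusted p = 0.64; exact permutation p = 0.20). It was -0.073 without antagonist replicate 2, the lowest array.

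Cdh2 encodes N-cadherin, the cadherin of the adherens junctions between heart muscle cells. Its values were 10.73, 10.64 and 10.75 in antagonist hearts and 10.96 and 10.75 in sham hearts. Sham replicate 1 was the high array, and sham replicate 2 equalled antagonist replicate 3. The Cdh2 difference was -0.15 ± 0.081 (SE; limma adjusted p = 0.64), which became -0.041 without sham replicate 1 and -0.25 without sham replicate 2. A second probe set gave -0.11, with sham replicate 1 again highest.

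Tjp1 encodes ZO-1, the scaffold protein that binds the tail of Cx43 at the edge of gap junctions. It measured 8.68, 8.71 and 8.79 in antagonist hearts and 8.98 and 8.70 in sham hearts. As for Cdh2, only sham replicate 1 was above the antagonist hearts. The Tjp1 difference was -0.11 ± 0.10 (SE; limma adjusted p = 0.69), and it was 0.029 without sham replicate 1 and -0.25 without sham replicate 2.

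Pkp2 encodes plakophilin 2 and Jup encodes plakoglobin, armadillo proteins of the desmosomal plaque that are mutated in arrhythmogenic cardiomyopathy in humans. Pkp2 measured 9.39, 9.21 and 9.32 in antagonist hearts and 9.33 and 9.33 in sham hearts. Its sham values fell inside the antagonist range, with a difference of -0.022 ± 0.061 (SE; limma adjusted p = 0.91). Jup was 7.57 in all 3 antagonist hearts, exactly equal, and 7.55 and 7.71 in sham hearts. The antagonist value lay between the sham values, and the difference was -0.065 ± 0.054 (SE; limma adjusted p = 0.66).

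Arrays contributed unequally across the 10 genes. Sham replicate 2 held the single highest value of 6 genes and sham replicate 1 that of 2, while antagonist replicates 1 and 2 held that of 1 gene each. The single lowest value was on antagonist replicate 2 for 3 genes, on antagonist replicates 1 and 3 for 2 each, and on sham replicate 1 for 1. With arrays left out in turn, 7 to 9 of the 10 genes were lower with the antagonist. The fewest, 7, were counted without sham replicate 2, where 43.6% of all tested genes were lower.

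Other genes of the same structures were set beside the 10 genes. In none of the 4 wider lists did a gene pass limma's adjusted threshold, beside 0% of all tested genes. Of 18 other connexins and pannexins, 6 passed the level filter, of which 5 were higher and 1 lower, with a median difference of 0.074. This count of 5 became 3 without antagonist replicate 1. The 4 genes of smallest unadjusted p were Gjd2, a neuronal connexin gene (0.12 ± 0.070, SE), Gjd3 (0.19 ± 0.12), Gjc3 (-0.053 ± 0.042) and the pannexin channel gene Panx1 (0.17 ± 0.13). Their groups all overlapped. Levels were low, with antagonist and sham means of 3.64 and 3.52 for Gjd2, under the array medians of 3.92 to 3.95. Gjd3, Gjc3 and Panx1 averaged 4.45 to 4.92 in antagonist hearts and 4.51 to 4.75 in sham hearts. Each of the 4 genes had a value shared between arrays.

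Of 17 other adherens junction and desmosome genes, 16 were tested, with 9 higher, 7 lower and a median of 0.018. Ctnna3 encodes alpha-T-catenin, which links cadherins to actin in heart muscle and binds plakophilin 2. It measured 8.47, 8.21 and 8.43 in antagonist hearts and 8.73 and 8.49 in sham hearts, a difference of -0.24 ± 0.13 (SE; limma adjusted p = 0.64). Vcl, the vinculin gene, ran the other way, with 9.51, 9.43 and 9.46 in antagonist hearts against 9.31 and 9.40 in sham hearts (difference 0.11 ± 0.043, SE; limma adjusted p = 0.64). Arvcf, a catenin gene, differed by 0.12 ± 0.052 (SE) and Cdh13, the T-cadherin gene, by -0.090 ± 0.040. The groups did not overlap for these 4 of the 16 genes, 2 higher and 2 lower, beside 12.5% of all tested genes (6.19% higher and 6.33% lower).

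Of 20 other genes of the intercalated disc, 17 were tested, with 10 higher, 7 lower and a median of 0.012. The number higher was 7 without antagonist replicate 1 and 14 without antagonist replicate 2, so the majority turned with the array left out. Pdlim5, a cytoskeletal scaffold gene, differed by 0.10 ± 0.050 (SE), Igsf11 by -0.12 ± 0.076, Ank2, the ankyrin B gene, by -0.053 ± 0.036, and Cxadr, the coxsackievirus and adenovirus receptor gene, by 0.048 ± 0.033. Of 16 kinases and turnover genes of Cx43, 13 were tested, with 7 higher, 6 lower and a median of 0.00043. Cav1, which encodes caveolin 1, measured 6.59, 6.63 and 6.58 in antagonist hearts and 6.84 and 6.74 in sham hearts (difference -0.19 ± 0.039, SE; limma unadjusted p = 0.010, adjusted p = 0.64). Nedd4, the gene of a ubiquitin ligase that acts on Cx43, measured 10.71, 10.74 and 10.72 in antagonist hearts and 10.80 and 10.78 in sham hearts (difference -0.069 ± 0.019, SE; limma unadjusted p = 0.025, adjusted p = 0.64). Prkcd, a protein kinase C gene, differed by 0.12 ± 0.072 (SE) and Hgs, an endosomal sorting gene, by 0.13 ± 0.078. Among these 13 genes the groups did not overlap for Cav1 and Nedd4, both lower, and for Prkcd, which was higher. The shares of all tested genes were 6.33% lower and 6.19% higher.

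**Figure D4:**
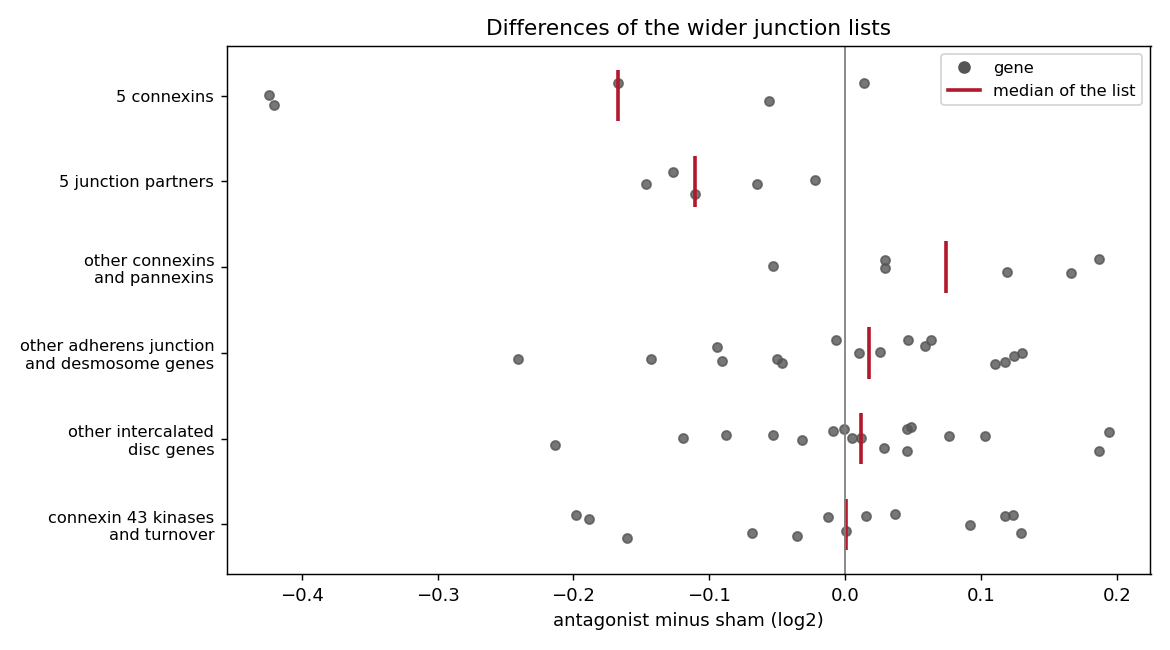
Each point is the difference of a tested gene, antagonist minus sham on the log2 scale, in the 5 connexins, the 5 junction partners and 4 wider lists, with a red line at the list's median. The wider lists lie on both sides of 0 with medians of 0.00043 to 0.074, and Gja1 and Gja4 are the points farthest to the left.

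Markers of the cells in which these genes are known to be expressed were read beside them. Of 9 tested conduction system markers, 3 were higher and 6 lower, and their summed signal was 382 to 413 in antagonist hearts and 438 to 458 in sham hearts. Their mean log2 value overlapped between the groups, at 5.08 to 5.22 in antagonist hearts and 5.18 to 5.29 in sham hearts. Irx3 and Etv1 were the 2 brightest of the 9 and the 2 whose groups did not overlap (12.5% of all tested genes). Irx3, a transcription factor gene of the fast conduction system, measured 6.57, 6.45 and 6.57 in antagonist hearts against 6.85 and 6.99 in sham hearts. Etv1, which encodes another transcription factor of fast-conducting myocardium, measured 6.37, 6.33 and 6.31 in antagonist hearts against 6.73 and 6.59 in sham hearts. Their differences were -0.39 ± 0.066 and -0.32 ± 0.055 (SE; limma unadjusted p = 0.0053 for both, adjusted p = 0.64). Other conduction markers did not share that gap: Hcn4, the pacemaker channel gene, was 4.79, 4.54 and 4.46 in antagonist hearts and 4.37 and 4.88 in sham hearts.

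Of 10 endothelial markers, 6 were higher and 4 lower, with summed signals of 3463 to 3562 in antagonist hearts and 3522 to 3693 in sham hearts. Cdh5, the VE-cadherin gene, measured 9.90, 9.82 and 9.95 in antagonist hearts and 10.16 and 10.09 in sham hearts (difference -0.23 ± 0.049, SE; limma unadjusted p = 0.011, adjusted p = 0.64). Eng, the endoglin gene, differed by 0.23 ± 0.14 (SE), so the 2 brightest endothelial markers ran in opposite directions. The 8 arterial endothelial markers, of the vessels that use Gja4 and Gja5, had summed signals of 501 to 521 in antagonist hearts and 505 to 522 in sham hearts. Of these 8 markers, 3 were higher and 5 lower. The groups did not overlap for 2 of them, both lower with the antagonist, beside 6.33% of all tested genes. Efnb2 differed by -0.079 ± 0.048 (SE) and Sox17 by 0.12 ± 0.14.

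Smooth muscle and fibroblasts also express Gja1. Of 8 smooth muscle and pericyte markers, 7 were lower and 1 higher, with summed signals of 4798 to 4966 in antagonist hearts and 5297 to 5526 in sham hearts. Of 8 fibroblast markers, 6 were lower, 1 higher and 1 equal, with summed signals of 3832 to 4646 in antagonist hearts and 4308 to 4475 in sham hearts. The mean log2 value of the smooth muscle list overlapped between the groups, at 7.97 to 8.09 in antagonist hearts and 8.06 to 8.19 in sham hearts. Rgs5, the brightest of that list, was 10.90, 10.97 and 10.97 in antagonist hearts and 11.36 and 10.97 in sham hearts, so sham replicate 1 alone was high. Of the brightest markers of both lists, Abcc9 differed by -0.074 ± 0.041 (SE), Rgs5 by -0.22 ± 0.13, Dcn by -0.012 ± 0.090 and Dpt by -0.14 ± 0.19. The cardiomyocyte markers Tnnt2 and Pln differed by -0.013 ± 0.017 (SE) and -0.028 ± 0.027, and the summed signal of that list was 34747 to 35875 in antagonist hearts and 34425 to 36059 in sham hearts. The part of other cell types in the Gja1 difference was not tested.

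Mesothelial cells form desmosomes, and antagonist replicate 2 was the array highest for their markers, as it was for atrial and adipocyte markers. That array was the lowest for Dsp, Cdh2 and Pkp2, and a link with the mesothelial markers was not tested. The 7 tested mesothelial and epithelial markers had a summed signal of 254 on that array, against 152 and 159 in the other antagonist hearts and 157 and 158 in the sham hearts. Upk3b measured 6.61 there, against 4.90 in both other antagonist hearts and 4.80 and 4.84 in the sham hearts, while Wt1 lay between 5.59 and 5.95 in antagonist hearts and between 5.75 and 5.79 in sham hearts. Macrophage markers had summed signals of 1402 to 1649 in antagonist hearts and 1505 to 1535 in sham hearts, with Lyz2 at 0.094 ± 0.10 (SE) and C1qb at 0.018 ± 0.16. Of these 8 markers, 5 were higher and 3 lower. The groups did not overlap for 2 of the higher and 1 of the lower, beside 6.19% and 6.33% of all tested genes. At an unadjusted limma p under 0.05 there was 1 of the 8, a higher one, beside 4.6% of all tested genes. The atrial gene Sln and the fat cell genes Retn and Cidec differed by 0.86 ± 1.30, 1.02 ± 0.97 and 1.05 ± 1.15 (SE), each with its highest value on antagonist replicate 2.

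**Figure D5:**
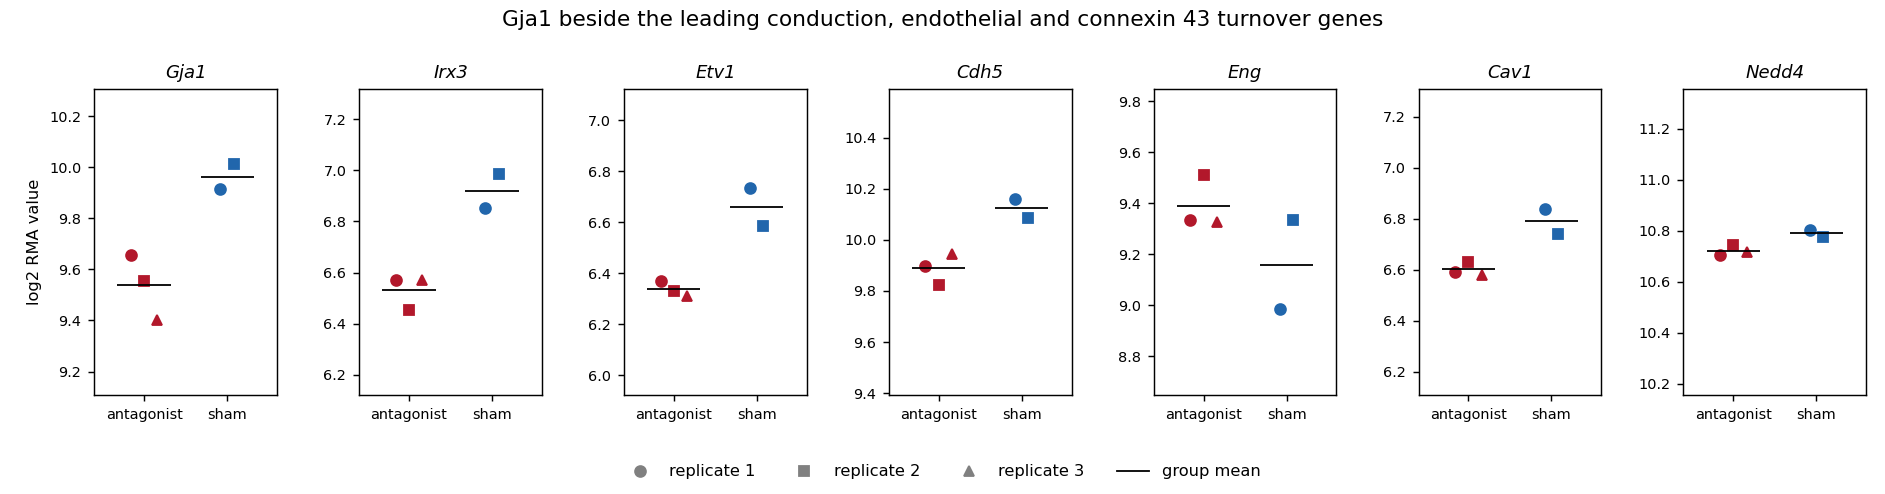
Log2 values of Gja1 are plotted beside Irx3 and Etv1 (conduction), Cdh5 and Eng (endothelium), and Cav1 and Nedd4 (Cx43 turnover), with 1 point per heart and a line at each group mean. The antagonist points lie below the sham points for Gja1, Irx3, Etv1, Cdh5, Cav1 and Nedd4, and the groups overlap for Eng. Irx3, Etv1, Cdh5 and Eng are the brightest genes of their lists, and Cav1 and Nedd4 have the smallest unadjusted p of theirs. The full lists were mixed, with 3 of 9 conduction, 6 of 10 endothelial and 7 of 13 turnover genes higher with the antagonist.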

How the data were processed

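Per the labels' protocols, 300 ng of total RNA from each of 5 hearts was labelled for Affymetrix arrays of whole-transcript design. The authors deposited log2 values made with RMA, per the submitters' processing notes. The RMA version, probe set library and build are not stated in the labels. This method summarises a probe set by median polish, which can give exactly equal values when arrays are few. The number of arrays limits the precision.

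The platform annotation gave 1 symbol for 23521 of 41345 probes, several for 1814 and none for the 16010 it did not list. The brightest probe (mean over all arrays) stood for each of 22180 symbols. Testing covered the 15294 genes whose mean reached 3.42, the 40th percentile of the probe means. The main test was limma 3.58.1 (lmFit, then eBayes; R 4.3.3), two-sided and without covariates, with 3 residual and 0.69 prior degrees of freedom. Its p-values were adjusted by the Benjamini-Hochberg method over all tested genes (threshold 0.05). A difference is the antagonist mean minus the sham mean, and summed signals add values taken back to the linear scale. Exact permutation tests used all 10 ways to divide the arrays. The script was tested on simulated data.

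The genes and lists were chosen with earlier results of these data known. All 10 genes were named, with the 4 genes of smallest unadjusted p in each wider list, the 2 brightest of each marker list, and the 3 genes nearest in pattern to the gene of greatest spread. Hcn4 and the genes of the closing part were picked after their values were seen. Alternatives covered the level filter, normalization, probe choice, moderation, weighting of arrays, a block for replicate number, and omission of single arrays.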

Additional observations from a re-analysis of the deposited data

How the results depend on the processing

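With limma, 0 genes passed under 9 alternatives to the processing or the model, and 0 without any single antagonist array. The 9 were the level filter absent or at the 60th percentile, second quantile normalization, median centring, mean of all probes, trended or robust moderation, array weights and replicate block. In the block, antagonist replicate 3 shares its number with no sham heart and so adds nothing to a difference. The block differences of the 10 genes therefore equalled those without antagonist replicate 3. Leaving out sham replicate 1 gave 1319 genes and leaving out sham replicate 2 gave 2058 (range 0 to 2058), where the lone sham heart is assumed to vary like the antagonist hearts. Over the omissions 0 to 1 of the 10 genes passed; the 1 was Jup without sham replicate 1 (-0.14, limma adjusted p = 0.0049), with its 3 equal antagonist values, and without sham replicate 2 Jup turned to 0.014. Gja1 kept its direction under all 14 alternatives (-0.48 to -0.36), as did Gja3, Gja4, Cdh2 and Dsp. Several of these could not change a direction, since the level filters and the trended or robust moderation leave the group means as they are. The mean of all probes also left Gja1, Gja3, Gja4 and Dsp unchanged, as each has 1 probe set. Pkp2 turned to 0.026 without antagonist replicate 2 (range over the omissions -0.063 to 0.026), Tjp1 to 0.029 without sham replicate 1 (-0.25 to 0.029) and Gjc1 to 0.048 without sham replicate 2 (-0.16 to 0.048); the cause was not tested. Counting members lower under each omission, chosen after seeing the data, gave 7 to 9. The labels do not pair the hearts. Deviations from the group means correlated at -0.11 for replicate 1 and 0.027 for replicate 2. For antagonist replicate 3 with sham replicate 1, which share no number, the value was 0.13. With 2 sham hearts the sham deviations mirror each other, so these correlations cannot settle pairing. With the replicate number as a block 0 genes passed and Gja1 was at -0.36, the same as without antagonist replicate 3.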

Other observations

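Most markers of smooth muscle and pericytes (7 of 8) and of fibroblasts (6 of 8) had a lower mean with the antagonist. In each list 1 marker was higher, while among all tested genes 46.3% were lower. Groups that did not overlap were found for 2 of 8 smooth muscle and pericyte markers and 2 of 8 fibroblast markers, all lower with the antagonist, beside 6.33% of all tested genes; the genes named here were chosen after their values were seen. Kcnj8, which encodes the pore of the vascular ATP-sensitive potassium channel, measured 8.22, 8.03 and 8.04 in antagonist hearts and 8.30 and 8.43 in sham hearts (difference -0.27 ± 0.085, SE). Lum, the lumican gene of fibroblasts, measured 7.23, 7.35 and 7.01 in antagonist hearts and 7.43 and 7.74 in sham hearts (difference -0.39 ± 0.15, SE). Myh11, the smooth muscle myosin gene, measured 6.73, 6.85 and 6.85 in antagonist hearts and 6.95 and 6.89 in sham hearts (difference -0.10 ± 0.054, SE). Tcf21, a fibroblast marker, measured 5.67 in every antagonist heart and 5.73 and 5.84 in sham hearts (difference -0.115 ± 0.039, SE). The limma adjusted p of these genes was 0.64 for each. In the same lists Tagln, the transgelin gene, differed by 0.17 ± 0.10 (SE) and Col1a2 by 0.022 ± 0.18, Pdgfra had the same value on all 5 arrays, and the groups overlapped for Acta2 and Pdgfrb.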
